A study of Mus musculus with 6 samples.

Results

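Shisa2, Shisa3, Shisa4 and Shisa5 were taken by name from the 24391 gene entries of an RNA sequencing study of mouse cardiac ventricles. They are 4 of the 8 entries whose symbol begins with Shisa. All 4 had a mean of at least 10 normalized counts and were among the 13032 genes tested. The mice were on the C57BL/6 background. Klf15 loss-of-function mice (KO) at postnatal day 10 (P10), 4 weeks (4w) and 20 weeks (20w) were each compared with wild-type mice (WT) of the same age. Each of the 6 groups had 3 libraries, 18 in all, made from bulk ventricular RNA. The sources used here do not give the allele that removes Klf15. Nor do the labels say if each library stands for its own animal, and the p-values then reflect only differences among libraries, some of which may be technical. Shisa3 is named in the title of the series as a gene that is raised, so its test at 20w is not independent evidence of that direction.

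Shisa proteins are small membrane proteins with a cysteine-rich amino-terminal domain. In Xenopus, the founding member Shisa keeps immature Frizzled and FGF receptors in the endoplasmic reticulum, which dampens the response of a cell to Wnt and FGF ligands. Human SHISA3 has been tied to the degradation of beta-catenin in lung cancer cells. Shisa5, also called Scotin, is induced by p53 and resides in the endoplasmic reticulum and nuclear envelope. KLF15 belongs to the Krüppel-like transcription factors, whose zinc fingers bind CACCC-type sequences, and it acts in heart metabolism.

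The RefSeq windows of 250 bases before the annotated start (GRCm38.p6) are shown for Shisa3, the member whose KO and WT libraries separated, and for Shisa2, whose libraries did not. Both lie on the plus strand, at chr5:67607633-67607882 for Shisa3 and chr14:59625031-59625280 for Shisa2. Capitals mark CACCC or its reverse complement GGGTG.
Shisa3: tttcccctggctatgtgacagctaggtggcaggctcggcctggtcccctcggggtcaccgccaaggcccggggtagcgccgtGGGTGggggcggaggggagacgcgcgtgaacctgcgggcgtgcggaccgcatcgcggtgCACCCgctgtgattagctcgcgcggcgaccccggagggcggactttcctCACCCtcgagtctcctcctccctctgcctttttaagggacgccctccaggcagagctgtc
Shisa2: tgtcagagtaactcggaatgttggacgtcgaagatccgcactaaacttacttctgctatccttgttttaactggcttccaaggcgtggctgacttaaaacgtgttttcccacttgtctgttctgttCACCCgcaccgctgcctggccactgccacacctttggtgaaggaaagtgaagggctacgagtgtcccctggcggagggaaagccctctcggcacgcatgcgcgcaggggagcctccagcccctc
The Shisa3 window held 3 such matches, which began 168, 109 and 60 bases before the start, and no CTTTG or CAAAG, the core letters of a TCF/LEF type motif. The Shisa2 window held 1 CACCC at 124 bases and 1 CTTTG at 93 bases before its start. Among the members whose KO and WT libraries overlapped at every age, the count of CACCC or GGGTG also reached 2 in the Shisa4 window and 0 to 5 in the 5 windows of Shisa5, so the count did not set Shisa3 apart. Among 32851 RefSeq windows of the same length, 52.0% held CACCC or GGGTG and 21.1% held it at 2 or more places, while 48.6% held CTTTG or CAAAG. A match is a run of letters and was not tested as a binding site. The GC content was 69.6% in the Shisa3 window and 56.0% in the Shisa2 window.

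Between 9504538 and 29278351 reads per library were assigned to genes, and 1 read was worth 0.397 to 2.03 normalized counts. Klf15 itself averaged 22.5, 42.2 and 40.0 normalized counts in KO at P10, 4w and 20w, against 149.7, 1078.3 and 1021.5 in WT. The ribosomal RNA gene Rn45s took 30.8% of the reads in the second 4w KO library and at most 2.72% in any other. In each of the 6 groups the second library had the highest Rn45s share. Of 12 cardiomyocyte markers, all reached at least 10 normalized counts in a library. Every P10 library held both the female-specific Xist, at 4814 to 6612 in KO and 5229 to 11077 in WT, and the Y-linked Ddx3y, at 525 to 1198 in KO and 634 to 1112 in WT. Each P10 library thus held RNA of both sexes, which points to pooled animals, though the labels do not state pooling. Spread among P10 libraries may then not mean the same as spread at later ages. At 4w and 20w Xist reached at most 9.40, and Ddx3y was at 2631 to 3592 in KO and 2397 to 3756 in WT. The ages therefore differ in the sex of the animals behind a library, and age and sex cannot be told apart in any comparison between P10 and a later age. Within P10 the ranges of KO and WT overlapped, but the medians differed. They were 5545 in KO and 9514 in WT for Xist, and 1187 in KO and 713 in WT for Ddx3y. The part of the sex mix in the KO effects at P10 was not tested.

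Shisa3 was higher in KO than in WT ventricles at 20w, by 2.17-fold, and this was the sole KO effect on a member that passed the test at any of the 3 ages. At P10 the order was the other way, with every KO library below every WT library, but the difference missed the threshold. The share of all genes tested whose KO and WT libraries separate in this way was not computed, so separation is only described. The KO effect at 20w differed from that at P10. At 4w the groups overlapped.

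At P10, Shisa3 was at 20.7, 28.3 and 39.2 normalized counts in the KO libraries and at 59.1, 87.9 and 41.4 in the WT libraries. The third library of each genotype set the narrow gap between the groups, 39.2 in KO against 41.4 in WT. The means were 29.4 ± 9.3 in KO and 62.8 ± 23.5 in WT (SD, n = 3 libraries each), a log2 fold change of -1.05 ± 0.31 (SE; limma adjusted p = 0.0909). The 95% interval, which is not adjusted for the number of genes, ran from -1.70 to -0.40. None of the 4 members was called at P10, where 2.26% of all genes tested were. The count-based tools placed Shisa3 past the threshold at this age, with -1.16 in edgeR (adjusted p = 0.0472) and -1.12 in DESeq2 (adjusted p = 0.0192).

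At 4w, Shisa3 was at 59.0, 64.9 and 69.8 in the KO libraries and at 86.6, 41.7 and 34.8 in the WT libraries. The KO values lay close together, inside the wide span of the WT values, whose first library was the highest of all 6. The means were 64.6 ± 5.4 in KO and 54.4 ± 28.1 in WT (SD, n = 3 libraries each), a log2 fold change of 0.35 with a 95% interval from -0.30 to 1.01 (limma adjusted p = 0.626). None of the 4 members was called at 4w, against 5.65% of all genes tested. With single 4w libraries left out it was 0.74 without the first WT library, 0.22 without the second WT library, 0.10 without the third WT library and 0.30 to 0.42 without a KO library, none of which passed the test.

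At 20w, Shisa3 was at 68.1, 78.4 and 123.9 in the KO libraries, from 80, 75 and 87 reads, and at 43.9, 39.5 and 36.1 in the WT libraries, from 28, 24 and 23 reads. The groups did not overlap, and the third KO library stood above the other KO libraries. The means were 90.1 ± 29.7 in KO and 39.8 ± 3.9 in WT (SD, n = 3 libraries each), a log2 fold change of 1.12 ± 0.31 (SE; limma adjusted p = 0.0325; 95% interval 0.46 to 1.77). One of the 4 members, Shisa3, was called at 20w, against 7.49% of all genes tested, and it ranked 767 by p among them. The call was lost on leaving out any 20w library except the first KO one. The adjusted p was then 0.0535 without the second KO library, 0.174 without the third KO library, 0.0572 without the first WT library, 0.0822 without the second WT library and 0.110 without the third WT library. With edgeR the adjusted p was 0.0576.

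**Figure D1:**
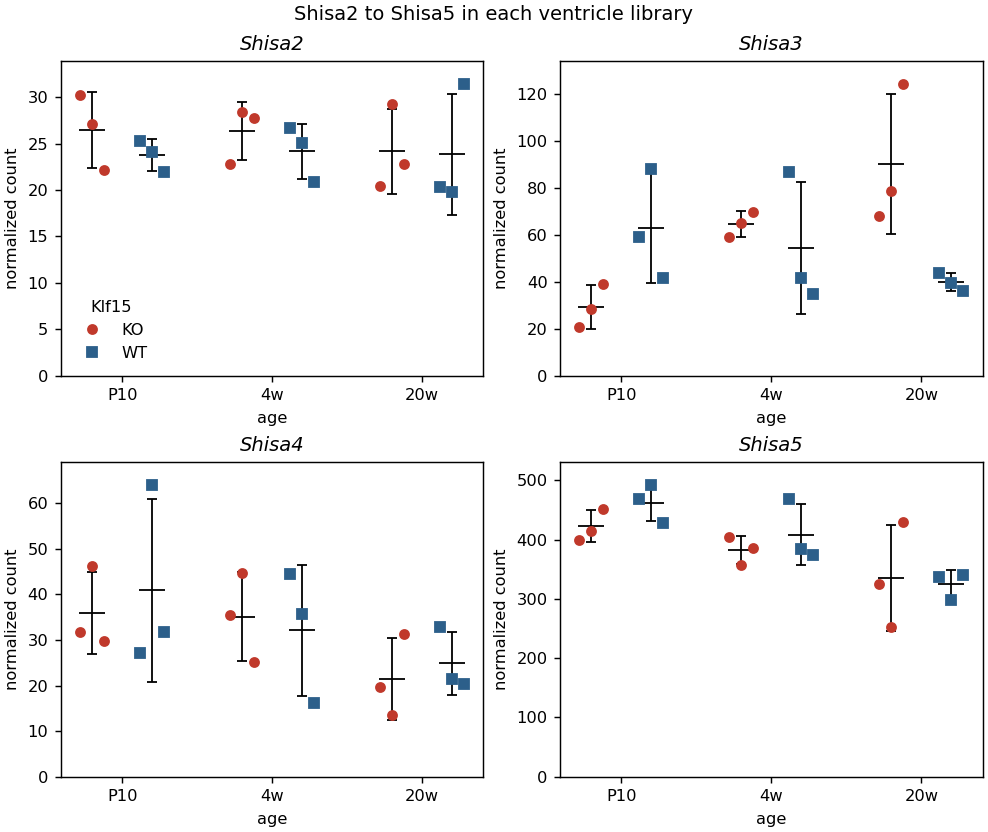
Normalized counts of Shisa2, Shisa3, Shisa4 and Shisa5 in each library by age (P10, 4w, 20w), KO as circles left of WT as squares, with group means and SD (3 libraries each). Shisa3 KO libraries lie below the WT libraries at P10 and above them at 20w, while the groups of the other 3 genes overlap at each age.

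The KO effect on Shisa3 was larger at 20w than at P10 by 2.17 ± 0.44 on the log2 scale (SE; limma interaction, adjusted p = 0.00833; 95% interval 1.25 to 3.09). This contrast called 1 of the 4 members, Shisa3, against 3.74% of all genes tested. Its difference between 4w and P10 was 1.41 (adjusted p = 0.133), in a contrast that called none of the 4 members and 1.26% of all genes. Without the first 4w WT library that difference was 1.79 and passed the test (adjusted p = 0.0257). That between 20w and 4w was 0.76 (adjusted p = 0.526), with none of the 4 members and 0.192% of all genes called. It was 0.37 without the first 4w WT library and 0.51 without the third 20w KO library. Averaged over the 3 ages the KO effect on Shisa3 was 0.14 (adjusted p = 0.687), and none of the 4 members was called against 10.4% of all genes. The interaction between 20w and P10 stayed past the threshold when any 1 of the 18 libraries was left out, at 1.89 to 2.43 with adjusted p up to 0.0296.

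Within KO hearts, Shisa3 averaged 29.4 ± 9.3, 64.6 ± 5.4 and 90.1 ± 29.7 at P10, 4w and 20w (SD, n = 3 libraries each). It was higher at 4w than at P10 by 1.15 ± 0.31 (SE; limma adjusted p = 0.00365), which made it 1 of 4 members called in a comparison that called 58.0% of all genes. With libraries scaled to a common total it was 0.67 and the call was lost (adjusted p = 0.0557). The further difference between 20w and 4w was 0.43 (adjusted p = 0.367), or 0.18 without the third 20w KO library, with none of the 4 members called against 19.3% of all genes. Within WT hearts the means were 62.8 ± 23.5, 54.4 ± 28.1 and 39.8 ± 3.9 at the same ages (SD, n = 3 libraries each). Neither WT step passed the test, at -0.25 between 4w and P10 (adjusted p = 0.507) and -0.33 between 20w and 4w (adjusted p = 0.473). In WT, none of the 4 members was called in either step, against 58.0% and 25.1% of all genes. Ordered by mean, Shisa3 ran from 20w KO at the top through 4w KO, P10 WT, 4w WT and 20w WT to P10 KO, and each group overlapped the next in range.

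**Figure D2:**
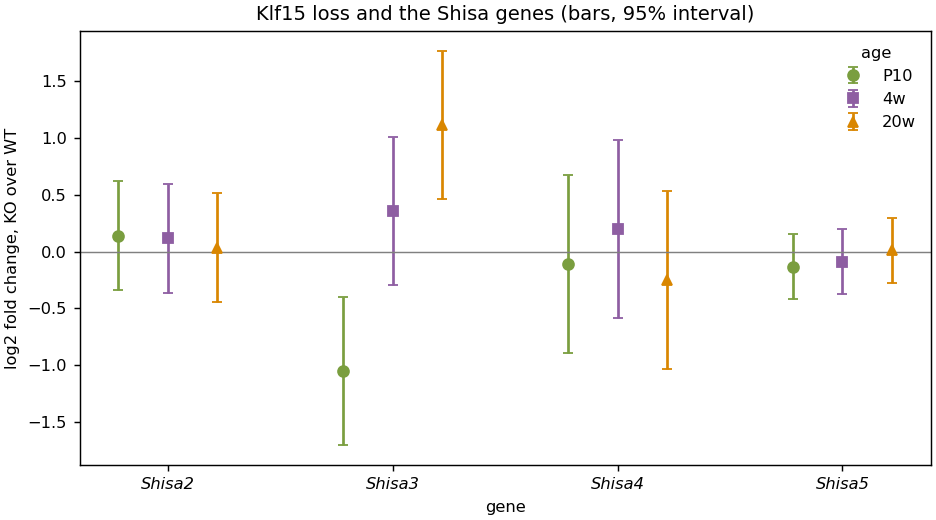
Log2 fold change of KO over WT for each Shisa gene at P10, 4w and 20w, with unadjusted 95% intervals from the limma fit. The Shisa3 interval lies below 0 at P10 (-1.70 to -0.40), spans 0 at 4w and lies above 0 at 20w (0.46 to 1.77), whereas all intervals of the other 3 genes span 0.

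Some libraries stood apart in a way that touched Shisa3. Nppa, which encodes the atrial natriuretic peptide and is re-expressed in the stressed ventricle, was at 3956 in the second P10 WT library, against 605 and 428 in the other P10 WT libraries. It was at 9024 in the third 20w KO library, against 2623 and 2648 in the other 20w KO libraries. These were the libraries with the highest Shisa3 value of their groups, 87.9 and 123.9. The atrial myosin light chain Myl4 was at 339 in that P10 WT library, the highest of its group, against 317 and 215. In that 20w KO library Myl4 was at 239, the lowest of its group. A further atrial myosin light chain, Myl7, was at 342 in that P10 WT library, inside the range of 185 to 357 of its group. In that 20w KO library Myl7 was at 261, the lowest of its group, whose range was 261 to 382. Myl4 and Myl7 were added after their values were seen, and atrial markers other than these and Nppa are not given by library. A further atrial marker, Sln, ranged from 77.4 to 113.9 in 20w KO, with a median of 78.3. The summed level of the 8 atrial markers, Nppa included, ranged from 3664 to 10074 in 20w KO and 3369 to 4656 in 20w WT, and from 1294 to 1993 in P10 KO and 1371 to 5424 in P10 WT. At 20w the median log2 fold change of these 8 genes was -0.51, and Nppa made up 9024 of the highest sum. Of the 8, 1 was called lower and 0 higher in KO, 12.5% against 7.49% of all genes. Without both libraries, chosen after seeing the data, the KO effect on Shisa3 was -0.78 at P10 (limma adjusted p = 0.289) and 0.86 at 20w (adjusted p = 0.137). The difference between the 20w and P10 effects was then 1.64 and no longer passed the test (adjusted p = 0.0766). The part of Nppa-high libraries in these differences was otherwise not tested.

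**Figure D3:**
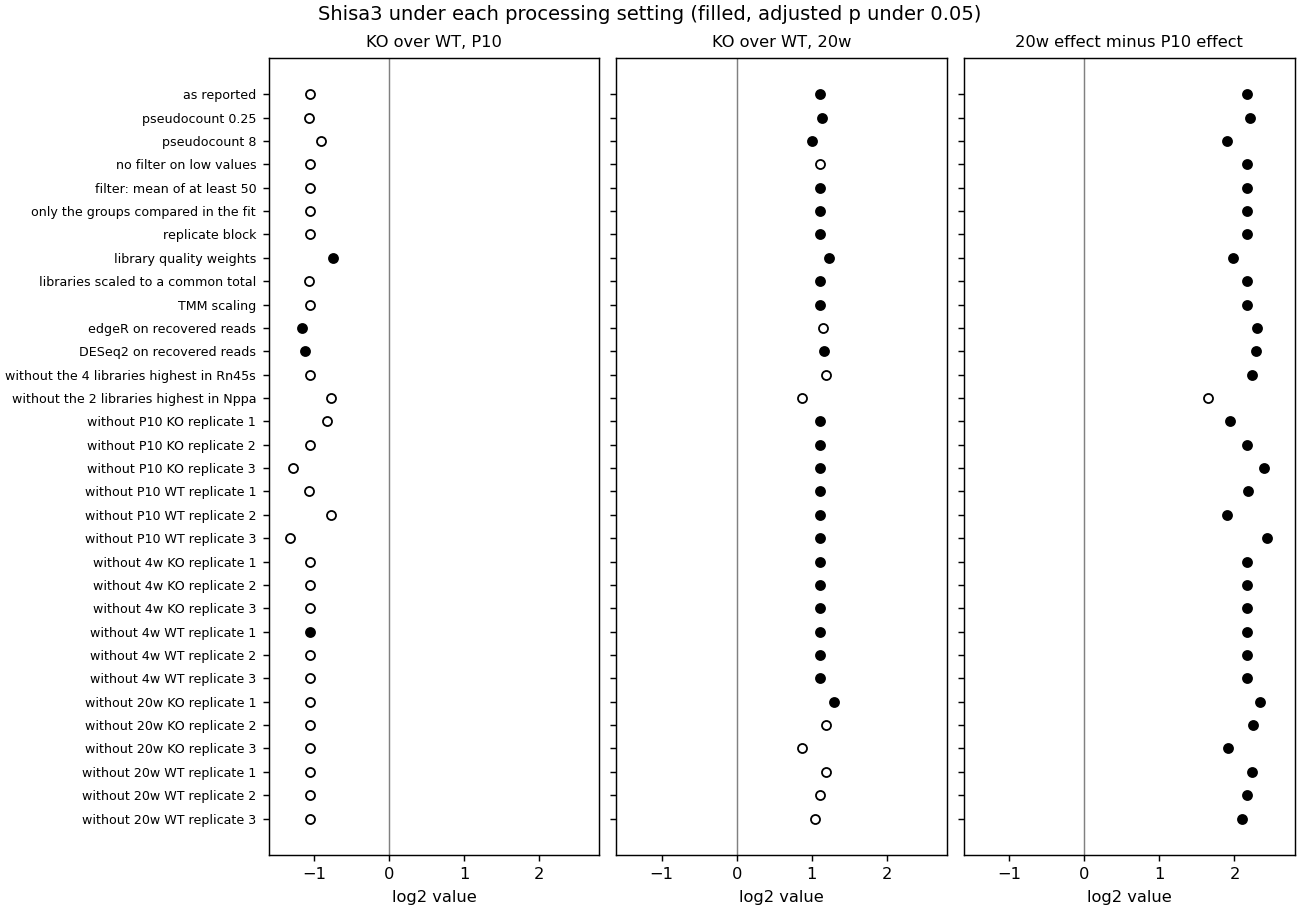
Log2 values for Shisa3 under each processing setting and with each library left out, for the KO effect at P10, the KO effect at 20w and the difference between them; filled points have an adjusted p under 0.05. The signs are the same under every setting drawn, the 20w effect lies between 0.86 and 1.29, and the difference between ages lies between 1.64 and 2.43.

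Over the 18 libraries, the gene most like Shisa3 among 10870 genes with a mean of at least 50 was Ecm1, which encodes an extracellular matrix protein, with a Pearson r of 0.88 on the log2 scale. Nppb, which encodes brain natriuretic peptide, followed at 0.82, and Eif2ak2, which encodes the double-stranded RNA-activated kinase PKR, at 0.77. These are descriptions over libraries that share groups and depth. On deviations from the group means, which are part of the r that chose these genes, r was 0.89 for Ecm1, 0.81 for Nppb and 0.66 for Eif2ak2. It was 0.57 for Nppa, which was added after its values were seen.

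At 20w, Nppb was at 2592, 2897 and 4816 in the KO libraries, with the third again the highest, and at 513 to 631 in the WT libraries. At P10, Nppb was at 682 to 913 in KO and 884 to 2127 in WT, with the second WT library the highest. At 4w, Nppb was at 1199 to 1517 in KO and 430 to 1498 in WT, with the first WT library the highest. Shisa3 was also highest in these 3 libraries of their groups. Ecm1 spanned a narrower range, at 156 to 185 in 20w KO and 140 to 143 in 20w WT.

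**Figure D4:**
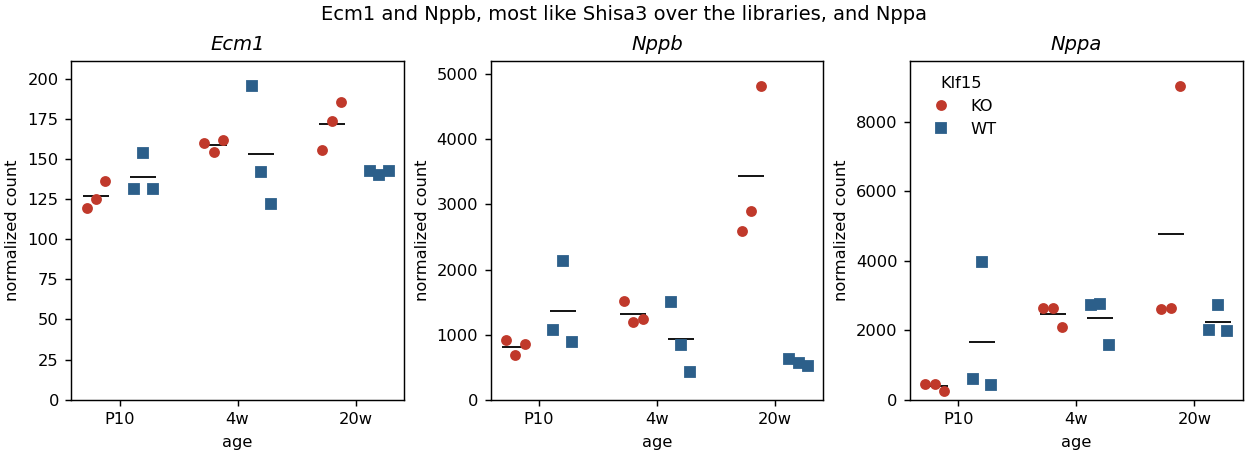
Normalized counts of Ecm1, Nppb and Nppa in each library by age, KO as circles left of WT as squares, with a line at each group mean. In all 3 genes the second P10 WT and the third 20w KO library are the highest of their groups.

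Shisa3 lies on chromosome 5 on the plus strand, in an annotation of GRCm38, with 1 coding transcript of 3760 nt. It overlaps Atp8a1, a phospholipid flippase gene on the opposite strand, over 138 of the 4754 bases that its exons cover. The sources used here do not say if reads were counted by strand, so reads in the overlap cannot be assigned to either gene. Atp8a1 was at 2191 to 2536 in 20w KO and 2135 to 2298 in 20w WT, a log2 fold change of 0.10 (limma adjusted p = 0.596). At P10 its log2 fold change was -0.02 (adjusted p = 0.965), and at 4w Atp8a1 was higher in KO by 0.34 (adjusted p = 0.0391). Its deviations from the group means ran against those of Shisa3 (r = -0.43 over 18 libraries). Of the 4 tested neighbours of Shisa3, none was called at P10 or 20w, and Atp8a1 was the 1 called at 4w. The neighbours tested numbered 5 for Shisa2, 6 for Shisa4 and 4 for Shisa5, and none of them was called at any age. Of all genes tested, 2.26%, 5.65% and 7.49% were called at P10, 4w and 20w, so groups this small would often hold no call.

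Shisa2, a mouse family member that antagonizes Wnt and FGF signalling, was low and near its counting limit. At 20w it was at 20.4, 29.3 and 22.8 in the KO libraries and at 20.4, 19.7 and 31.4 in the WT libraries, and over all libraries it ranged from 19.7 to 31.4. The groups overlapped at each age. Its KO effect was 0.14, 0.12 and 0.04 on the log2 scale at P10, 4w and 20w (limma adjusted p = 0.863, 0.864 and 0.954). The 95% intervals were -0.34 to 0.62, -0.36 to 0.60 and -0.44 to 0.51, so changes of up to about those sizes remain possible. The coefficient of variation between libraries was 7.25% to 27.5% over the 6 groups, where read counting alone gives 15.7% to 26.5%. The lowest count of a member in any library was 12 reads.

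Shisa4 was at 19.6, 13.6 and 31.3 in the 20w KO libraries and at 32.9, 21.4 and 20.4 in the 20w WT libraries. The P10 values were 31.8, 46.3 and 29.8 in KO and 27.2, 63.9 and 31.6 in WT. Again the groups overlapped, and the spread was wide. Its KO effects were -0.11, 0.20 and -0.25 at P10, 4w and 20w (limma adjusted p = 0.946, 0.859 and 0.760), with 95% intervals of -0.89 to 0.68, -0.59 to 0.98 and -1.03 to 0.54. As with Shisa3, the highest value of P10 WT came from the second library, that of 4w WT from the first and that of 20w KO from the third.

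Shisa5 was the most abundant member per kb of transcript. It was at 324.3, 251.8 and 428.8 in the 20w KO libraries and at 336.8, 297.7 and 340.3 in the 20w WT libraries. The KO values lay on both sides of the WT values. The means at P10, 4w and 20w were 422.3 ± 27.1, 382.5 ± 23.9 and 335.0 ± 89.0 in KO and 462.4 ± 31.7, 408.5 ± 52.1 and 324.9 ± 23.6 in WT (SD, n = 3 libraries each). The KO effects were -0.13, -0.09 and 0.01 (limma adjusted p = 0.752, 0.815 and 0.973), with 95% intervals of -0.42 to 0.16, -0.38 to 0.20 and -0.27 to 0.30. The steps between ages did not pass the test either, at -0.14 and -0.22 in KO (adjusted p = 0.389 and 0.280) and -0.18 and -0.32 in WT (adjusted p = 0.264 and 0.0905). The KO step between 20w and 4w was -0.42 and passed the test without the third 20w KO library (adjusted p = 0.0242), and was -0.035 without the second. With libraries scaled to a common total, the steps between 4w and P10 passed the test at -0.63 in KO (adjusted p = 0.00347) and -0.44 in WT (adjusted p = 0.0482). The WT step between 20w and 4w, unchanged at -0.32, passed the test with the compared groups alone in the fit (adjusted p = 0.0483) and without the second or the third 20w KO library (adjusted p = 0.0360 and 0.0345). The genes most like Shisa5 over the libraries were Tuba1b, Cd38 and Elovl1 (r = 0.88, 0.88 and 0.87). Those most like Shisa2 were Alg9, Exosc5 and Gpr180 (0.78, 0.69 and 0.68), and those most like Shisa4 were Tmem206, Vsig10 and Arpc2 (0.78, 0.76 and 0.74).

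The members were compared with each other per kb of the longest coding transcript. On that scale Shisa5 averaged 170 to 242 normalized counts per kb over the 6 groups, Shisa4 12.2 to 23.2, Shisa3 7.81 to 24.0 and Shisa2 7.62 to 8.49. Shisa5 has 14 annotated coding transcripts of 347 to 1910 nt, so its level per kb depends on which of them is expressed. Across the 18 libraries the log2 levels of Shisa4 and Shisa5 were correlated (r = 0.70), whereas Shisa3 gave r = 0.11 with Shisa4 and 0.09 with Shisa5. On deviations from the group means those values were 0.57, 0.62 and 0.67. Shisa2 gave r between -0.07 and 0.09 with the other members.

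The receptors named above for Shisa are those of the Frizzled and FGF families. A list of Frizzled and LRP receptor genes, which also held Ror1, a gene of neither family, had 14 genes tested. None was called at P10 or 4w, and at 20w 1 was higher and 1 lower in KO, 14.3% of the list against 7.49% of all genes. Fzd1 was higher by 0.45 (limma adjusted p = 0.0313) and Fzd4 lower, at -0.26 (adjusted p = 0.0489). The median log2 fold change of the list was 0.00, 0.05 and 0.10 at P10, 4w and 20w, beside -0.01, 0.00 and 0.01 over all genes tested. Of 4 tested FGF receptor genes, only Fgfrl1, a receptor without a kinase domain, was called, at 4w (0.39, adjusted p = 0.0257), which is 25.0% of this short list against 5.65% of all genes. The list medians were 0.08, 0.30 and 0.22.

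Downstream, 17 genes of the beta-catenin core were tested, and 2 were called, both higher in KO at 4w, 11.8% of the list against 5.65% of all genes. They were Dvl3, which relays the Frizzled signal (0.73, limma adjusted p = 0.00198), and Apc, of the beta-catenin destruction complex (0.23, adjusted p = 0.0417). The medians of the core list were 0.02, 0.22 and 0.06 at P10, 4w and 20w. Of 11 tested Wnt/beta-catenin target genes, none was called at P10 or 4w and 1 at 20w, Cd44, a hyaluronan receptor, higher in KO by 0.68 (adjusted p = 0.0299), or 9.09% of the list against 7.49% of all genes. Axin2, a widely used readout of the pathway, gave 0.57 at 4w and missed the threshold (adjusted p = 0.0580). The target list had medians of 0.22, 0.07 and 0.21. Averaged over the ages, 4 of the 11 targets were called, 36.4% against 10.4% of all genes. Cd44 (0.45, adjusted p = 0.00867), the TNF receptor family gene Tnfrsf19 (0.35, adjusted p = 0.0281) and Axin2 (0.31, adjusted p = 0.0490) were higher in KO, and Wif1, which encodes a secreted Wnt inhibitor, was lower (-0.41, adjusted p = 0.0197). With libraries scaled to a common total, Cd44 and Wif1 kept their calls, while Tnfrsf19 and Axin2 were at 0.27 and 0.23 and lost theirs (adjusted p = 0.220 and 0.287). The average also called 2 of 14 genes of the Frizzled and LRP list, Fzd4 lower and Ror1 higher. That is 14.3% of the list, against 10.4% of all genes. The average called 1 of 4 FGF receptors (25.0%, Fgfrl1 higher), 1 of 17 core genes (5.88%, Dvl3 higher) and 0 of 13 feedback genes. Of 20 p53 targets it called 1 higher, Bbc3, and 3 lower (20.0%). With the common-total scaling, Fzd4, Ror1, Fgfrl1, Dvl3 and Bbc3 lost their calls, and the 3 lower p53 targets kept theirs. Across the libraries the level of Shisa3 had r = 0.35 with that of Axin2, and -0.22 on deviations from the group means.

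Among 13 tested feedback genes of FGF and ERK signalling, Spred2, an ERK pathway inhibitor, was higher in KO at 4w (0.51, limma adjusted p = 0.0348), and the transcription factor gene Etv1 was lower at 20w (-0.55, adjusted p = 0.0226). Each is 7.69% of the list, against 5.65% of all genes at 4w and 7.49% at 20w. The medians of the feedback list were -0.03, 0.17 and 0.08. Of 20 tested p53 target genes, 1 was lower at P10, 2 were lower at 4w, and at 20w 2 were lower and 1 higher. These are 5%, 10% and 15% of the list at P10, 4w and 20w, against 2.26%, 5.65% and 7.49% of all genes. Sesn1, which restrains mTORC1, was lower in KO at 4w (-0.73, adjusted p = 7.68e-06) and at 20w (-0.60, adjusted p = 6.68e-05). The death receptor gene Fas was also lower at both ages (-0.70, adjusted p = 0.0144, and -0.60, adjusted p = 0.0313). Ccng1 was lower at P10 (-0.45, adjusted p = 0.00957), and Perp was higher at 20w (0.25, adjusted p = 0.0316). The medians of the p53 list were -0.08, -0.06 and 0.11, and Shisa5 itself gave no call at any age.

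With libraries scaled to a common total, the median of all genes shifted by -0.24 at 4w. At that age Apc then turned to -0.01, Dvl3, Fgfrl1 and Spred2 lost their calls (adjusted p = 0.0901, 0.569 and 0.325), and Sesn1 and Fas kept theirs. At 20w Fzd1, Fzd4, Etv1, Fas and Perp, and at P10 Ccng1, lost their calls (adjusted p = 0.251, 0.568, 0.163, 0.158, 0.508 and 0.136) with nearly the same log2 fold changes (0.45, -0.26, -0.55, -0.60, 0.24 and -0.46), while Cd44 and Sesn1 kept theirs.

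**Figure D5:**
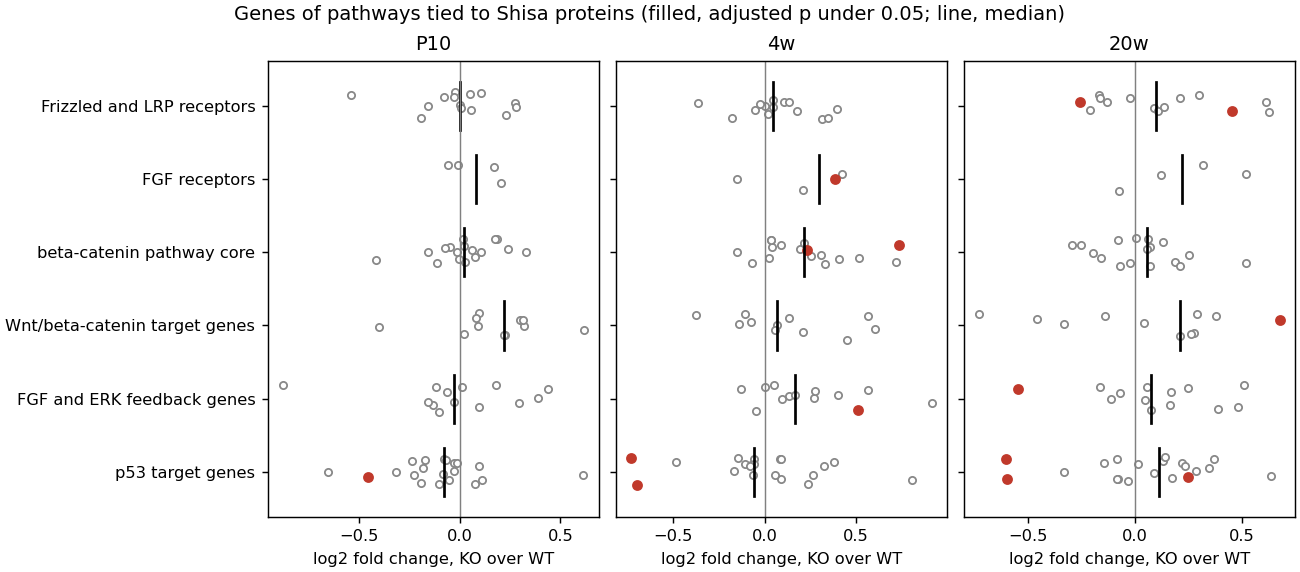
Log2 fold changes of KO over WT at P10, 4w and 20w for the tested genes of 6 pathway lists, 1 point per gene, filled where the adjusted p was under 0.05, with a line at each list's median. Between 0 and 3 points are filled per list and age.

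Summed levels of cell type markers are given beside the Shisa3 differences. In bulk tissue, fewer cells of a type and less RNA per cell cannot be told apart. The 12 macrophage markers summed to 4714 to 5175 in 20w KO and 3956 to 4491 in 20w WT, which did not overlap. None of the 12 was called, against 7.49% of all genes. The 12 smooth muscle and pericyte markers summed to 46095 to 51093 in 20w KO and 43278 to 44344 in 20w WT, without overlap. Of them 1 was called, higher in KO. This is 8.33% of the list, beside 3.21% of all genes called higher and 7.49% called in either direction. Endothelial markers lay the other way at 20w, at 23545 to 24587 in KO and 25181 to 25808 in WT, with none of 12 called. Of 12 fibroblast markers, 3 were higher in KO at 20w, 25.0% against 3.21% of all genes called higher, while their summed level overlapped, at 15089 to 18648 in KO and 16311 to 16887 in WT. Sums also separated at 4w, where the Shisa3 groups overlapped. The 4w fibroblast sum was 23994 to 27464 in KO and 28294 to 33866 in WT, with 2 of 12 called lower (16.7% against 5.65% of all genes). The 4w macrophage sum was 5447 to 5803 in KO and 5831 to 6716 in WT. Endothelial sums and smooth muscle and pericyte sums overlapped at 4w. At P10 the smooth muscle and pericyte sum was 42115 to 47777 in KO and 39917 to 40113 in WT, and the fibroblast sum was 74776 to 80096 in KO and 79548 to 90538 in WT. Of the 12 smooth muscle and pericyte markers 1 was called at P10, higher in KO, 8.33% against 0.591% of all genes called higher. None of the 12 fibroblast markers was called at P10. The 10 skeletal muscle markers summed to 213 to 265 in P10 KO and 303 to 411 in P10 WT, with Myh4, Tnnt3, Actn3, Myod1 and Myog under 10 in every library. Of the 3 tested 1 was called lower, 33.3% of this very short list against 2.26% of all genes. The part of these cell types in the Shisa3 differences was not tested.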

How the data were processed

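Messenger RNA of mouse ventricles was sequenced in 18 libraries. Each deposited value is a signal: the read count of a gene, which the authors scaled by the size factor of its library. Per the submitters' processing notes, Bowtie2 2.0, the genome build mm9 and DESeq2 were used, without their roles. The sources used here do not give the read counter, strand setting or annotation. Dividing by the step that 1 read is worth gave whole reads for 100.0% of values, within a tolerance of 0.001. On those reads, edgeR 4.0.16 called 515, 705 and 842 genes at P10, 4w and 20w. In the table, 27 entries carry dates as names (at most 0.216% of a library's reads) and were not interpreted.

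Genes with a mean of at least 10 were tested as log2(value + 1) in limma 3.58.1 (R 4.3.3), with a mean for each of the 6 groups and a mean trend, two-sided, with Benjamini-Hochberg adjustment over 13032 genes, and called at an adjusted p under 0.05. Fold changes refer to this scale, which understates those of genes with low values. Alternatives were pseudocounts of 0.25 and 8, other filters, scalings, library weights, edgeR, DESeq2 1.42.0, a replicate block and leaving libraries out. Intervals are 95%.

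The members and gene lists were chosen with earlier results of these data known; no list holds a member. Named genes are the 4 members, Klf15, the 3 genes most like each member (mean of at least 50, ordinary name), and from each pathway list up to 4 called genes by adjusted p, or up to 2 where none was called. Nppa, Myl4, Myl7, Xist, Ddx3y and Atp8a1 were added after their values were seen. Gene structure came from a GRCm38 annotation, another build than that of the files, and promoter windows from RefSeq GRCm38.p6.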

Additional observations from a re-analysis of the deposited data

Results flagged for a closer look

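The effect of Klf15 loss on Shisa3 differed between ages: in log2 terms the KO effect was 2.17 higher at 20w than at P10 (limma interaction, adjusted p = 0.00833). All 3 KO libraries lay above the WT libraries at 20w and all 3 lay below them at P10. How many of all genes tested separate in this way was not computed. The interaction was 1.64 (adjusted p = 0.0766) without the second P10 WT and the third 20w KO library, the ones highest in Nppa relative to their groups. P10 libraries held RNA of both sexes by Xist and Ddx3y, so age and sex cannot be told apart here. The part of the sex mix in the KO effect at P10 was not tested.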

How the results depend on the processing

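None of the 13 alternatives or 18 single-library omissions moved Shisa3 to the other side of 0 at P10 or 20w, while its calls depended on the setting. At P10, Shisa3 passed the threshold with library weights (-0.75, adjusted p = 0.0472), edgeR (-1.16) and DESeq2 (-1.12), and when the first 4w WT library was left out (adjusted p = 0.0367). At 20w its call was lost with no filter on low values (1.12, adjusted p = 0.0628), where more genes are tested, with edgeR (1.14, adjusted p = 0.0576), without the 4 libraries highest in Rn45s (1.19, adjusted p = 0.147), where fewer samples are used, and without the 2 highest in Nppa (0.86). The interaction between 20w and P10 was 1.64 in the last setting, which was chosen after seeing the data, and was past the threshold under the other alternatives. The Shisa3 difference between 4w and P10 in KO was 0.67 with libraries scaled to a common total (adjusted p = 0.0557). That scaling moved the median of all genes by -0.48 in this comparison and by -0.24 for KO over WT at 4w, where Shisa2 became -0.11 and Shisa4 -0.037. Other values near 0 changed sign: Shisa4 at P10 with library weights (0.18) and without the Nppa-high libraries (0.26), Shisa2 at 20w without the Rn45s-high libraries (-0.22), and, without the Nppa-high libraries, Shisa5 at 20w (-0.18) and the WT difference of Shisa3 between 4w and P10 (0.020). For the changes with no such construction named, the cause was not tested.

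With 1 library left out at a time, Shisa3 ranged from -1.31 to -0.78 at P10, from 0.097 to 0.74 at 4w and from 0.86 to 1.29 at 20w. Shisa4 ranged from -0.34 to 0.26 at P10, -0.22 to 0.48 at 4w and -0.55 to 0.027 at 20w. Shisa5 ranged from -0.15 to 0.013 at 4w and -0.18 to 0.20 at 20w, and Shisa2 from -0.11 to 0.24 at 20w. The Shisa3 difference between 20w and 4w in KO ranged from 0.18 to 0.61, and that between the 20w and 4w effects from 0.37 to 1.02. In WT, Shisa3 ranged from -0.64 to 0.020 between 4w and P10 and from -0.59 to 0.057 between 20w and 4w. On deviations from the group means, same-numbered KO and WT libraries of an age correlated at -0.25 to 0.12. The WT library of the same number gave the highest r only for the first and second 4w KO libraries. Yet the second library had the highest Rn45s share in each of the 6 groups, so the numbers may carry shared structure. The labels do not say what the numbers stand for. With a replicate block, Shisa3 was -1.05 at P10 (adjusted p = 0.127), 0.35 at 4w and 1.12 at 20w (adjusted p = 0.0489), the interaction kept its call (adjusted p = 0.0164), and 225, 632 and 867 genes were called at P10, 4w and 20w, against 295, 736 and 976 without it. Over the alternatives other than left-out single libraries, those counts ranged from 109 to 1384, 212 to 1001 and 408 to 1032. The genes called for the difference between the 20w and P10 effects ranged from 161 to 1004 around 488, for 4w against P10 from 21 to 566 around 164, and for 20w against 4w from 3 to 141 around 25. For the mean over ages they ranged from 706 to 1959 around 1351, and between 20w and 4w from 1219 to 2552 around 2514 in KO and from 1750 to 3886 around 3273 in WT. Shisa2 and Shisa4 have no value under a filter at a mean of 50. Read counts were lowest for Shisa2 and Shisa4, at 12 or more reads per library. The spread of Shisa2 was near that of read counting. For Shisa4 the coefficient of variation was 49.0% in P10 WT, where read counting alone gives 15.6%. In 20w WT it was 27.9%, against 25.9% from counting.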

Other observations

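Shisa6, whose protein is an auxiliary subunit of AMPA-type glutamate receptors, was the one other Shisa gene with a mean of at least 10 normalized counts. It ranged from 1.19 to 3.61 in KO and 0.937 to 3.25 in WT at P10, from 2.03 to 9.27 in KO and 3.33 to 9.28 in WT at 4w, and from 21.4 to 33.2 in KO and 26.6 to 51.8 in WT at 20w. Every 20w library lay above every 4w library, in both genotypes. It passed the filter through its 20w libraries, so no test of this difference is given. Its KO effects did not pass the test at any age (limma adjusted p = 0.841, 0.993 and 0.749 at P10, 4w and 20w). Shisa7, Shisa8 and Shisa9 reached at most 1.57, 1.99 and 7.84 normalized counts.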
